A study of Mus musculus with 4 samples.

Results

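Egr1, Egr2, Egr3, Nr4a1, Nr4a2, Nr4a3, Ier2, Ier3, Dusp1 and Zfp36 are immediate-early genes, and all 10 were found by their symbols among the 18598 genes of the deposited RNA-seq table. RNA had been sequenced from LSK cells, lineage-negative, SCA-1 and c-KIT positive bone marrow cells among which hematopoietic stem and progenitor cells are found. There were 2 libraries of Bptf-cKO cells, from C57BL/6 mice with floxed Bptf alleles and Mx1-cre, and 2 libraries of control cells, from littermates with the floxed alleles and no cre. All mice were about 3 months old and had received pIpC, an RNA mimic that induces Mx1-cre through interferon, and each library pooled the LSK cells of 5 mice sorted 10 days after cre induction. Mx1 is an interferon-responsive promoter that is active in many cell types, and Bptf deletion was by design not limited to LSK cells.

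Immediate-early genes are transcribed within minutes of a signal, without new protein synthesis, when kinases activate factors such as SRF and CREB that already sit at their promoters. Their mRNAs are short-lived, and several of their products shut the response down again. In hematopoietic stem cells Egr1 is known for holding cells in quiescence and in the niche, and loss of Nr4a1 together with Nr4a3 is known to cause myeloid leukemia in mice. Mechanical and enzymatic isolation of cells is also known to induce immediate-early genes.

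The sequences below show the upstream regions of the 2 genes that were lower in both replicate pairs by the largest amounts, Dusp1 and Zfp36, and of the 2 Nr4a genes that were lower in 1 pair. They are from RefSeq on GRCm38.p6, 5′ to 3′ on the gene's own strand. Capitals mark the CRE (TGACGTCA) and its half-site TGACG on either strand, the EGR site GCGGGGGCG on either strand and the CArG box bound by SRF. The CRE contains the half-site on both strands.
Dusp1, chr17:26508520-26508722, minus strand, ending 47 bases before the RefSeq start: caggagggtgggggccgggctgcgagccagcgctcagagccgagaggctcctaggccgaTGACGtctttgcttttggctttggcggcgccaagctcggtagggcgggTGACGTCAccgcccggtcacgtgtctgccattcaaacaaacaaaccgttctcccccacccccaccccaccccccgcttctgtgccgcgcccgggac
Nr4a1, chr15:101266596-101266845, plus strand, ending at the start: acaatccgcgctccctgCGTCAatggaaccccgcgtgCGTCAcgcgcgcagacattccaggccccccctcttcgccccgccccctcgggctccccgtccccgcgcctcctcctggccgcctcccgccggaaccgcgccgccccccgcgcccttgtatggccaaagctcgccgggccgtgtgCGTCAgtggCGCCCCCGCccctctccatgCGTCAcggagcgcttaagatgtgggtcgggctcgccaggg
Nr4a2, chr2:57124004-57124253, minus strand, ending at the start: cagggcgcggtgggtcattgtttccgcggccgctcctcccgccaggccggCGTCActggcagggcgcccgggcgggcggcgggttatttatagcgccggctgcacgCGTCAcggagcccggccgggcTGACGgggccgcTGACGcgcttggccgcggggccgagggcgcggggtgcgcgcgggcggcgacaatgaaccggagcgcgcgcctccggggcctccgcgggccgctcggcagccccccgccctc
Zfp36, CArG box, chr7:28379267-28379296, minus strand: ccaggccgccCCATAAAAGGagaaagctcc
Zfp36, EGR site, chr7:28379315-28379343, minus strand: gagctacgccGCGGGGGCGcgtcccggaa
The Zfp36 window lies inside an exon of a longer annotated transcript, so that only these short stretches are shown. The 250 bases upstream of the start held 1 CRE in Dusp1, beside 3 half-sites that include its own on each strand, 4 half-sites each in Nr4a1, Nr4a2 and Nr4a3, an EGR site in Nr4a1 and Zfp36, and a CArG box in Zfp36 and at 4 of the 5 starts of Egr2, with 2 half-sites at 3 of those starts. None of these motifs, nor the NR4A site AAAGGTCA, was found in the window of Ier3. Among all 32851 RefSeq promoter windows of this length, 1.55% held a CRE, 17.8% a half-site, 2.57% the EGR site, 1.47% a CArG box and 1.34% the NR4A site. Egr1, Egr3 and Ier2 were not matched in the promoter table.

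The product of Zfp36 binds AU-rich elements in 3′ UTRs and hastens decay of the mRNA. Its heptamer TATTTAT occurred in the annotated 3′ UTR of 5 of the 10 genes, with 4 copies in Ier3, 3 in Dusp1, 3 in Zfp36 itself, 2 in Nr4a3 and 1 in Nr4a2, and in 26.1% of 20104 mouse 3′ UTRs of at least 50 bases (GENCODE vM21). The first copy in Dusp1 and in Zfp36 is shown in capitals.
Dusp1 3′ UTR, chr17:26506163-26506183, GRCm38, minus strand: tggtcctTATTTATttaacac
Zfp36 3′ UTR, chr7:28376970-28376990, GRCm38, minus strand: ggcccttTATTTATgacgact
The UTRs of Egr1, Egr2, Egr3, Nr4a1 and Ier2 did not hold the heptamer. The shorter stretch ATTTA occurred 2 times in Egr1, 3 in Egr2, 7 in Egr3, 3 in Nr4a1 and 0 in Ier2. Its share over all UTRs was not counted. These matches describe the sequences and were not tested for binding or use.

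Expression is given as the normalized count, the gene's reads divided by a size factor of the library. Reads on listed genes numbered between 14091054 and 30134742 per library, with the replicate 1 library the deeper of each genotype. Bptf itself was at 5520.4 and 5850.1 in control libraries 1 and 2 and at 3398 and 3319.9 in Bptf-cKO libraries 1 and 2, a log2 difference of -0.76 (limma adjusted p = 0.0439). These counts are over the whole gene and do not measure the efficiency of deletion. The paper reports a lack of reads on the deleted exon in Bptf-cKO cells, and an unstable out-of-frame transcript. Both replicate 2 libraries stood apart from both replicate 1 libraries. Xist was at 15675 and 11843 in the replicate 2 libraries against at most 3.25 in the replicate 1 libraries, and 5 pluripotency genes (Pou5f1, Nanog, Sox2, Dppa5a and Zfp42) were together at 812 and 1012 against 0 reads. The genotype differences of the 10 genes are therefore also given within each replicate pair. The Y-linked genes Ddx3y, Eif2s3y, Kdm5d and Uty were together at 5133 in control replicate 1 and 5052 in Bptf-cKO replicate 1. In control replicate 2 they were at 1342 and in Bptf-cKO replicate 2 at 2528, so that the replicate 2 pair was less alike in them. Defining markers of LSK cells were present in all libraries, with the list of 10 markers at sums of 65190 and 57531 in control libraries 1 and 2 and 49616 and 47117 in the Bptf-cKO libraries. Granulocyte markers were at sums of 83092 and 13763 in control libraries 1 and 2 and 60238 and 49970 in Bptf-cKO libraries 1 and 2, monocyte markers at 8053, 4170.3, 4568 and 4584, and B-cell markers at 7636, 1992, 4288 and 2487. In the same order, erythroid markers were at 2657, 2019, 492 and 586, and megakaryocyte markers at 6692, 5461, 4850.4 and 5012. The 4 of 6 dendritic-cell markers found were at 10589.7, 7289, 7408 and 5235, and include Flt3, which is also on the LSK list. The 5 of 7 stromal and endothelial markers found were at 2828, 1809, 2502 and 2500.2. The 3 of 7 T and NK cell markers found were at 2066, 1319, 2364 and 2348. Cd3e, Cd3d, Cd3g, Cd8a, Siglech, Cd209a, Lepr and Bglap were not among the genes of the deposited RNA-seq table. The B-cell marker Ms4a1 was at 0 in Bptf-cKO replicate 2, and no other marker found in the table was at 0 in a library. Among the 8 erythroid markers 1, Epor, passed the limma test, where 0.37% of all tested genes were called lower and 0.37% higher. It is named after its values were seen.

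Dusp1 and Zfp36, both of which act to end a signalling response, had the largest differences of the 8 genes tested, with means 4.73-fold and 4.03-fold lower in Bptf-cKO LSK cells. Egr1, Ier2 and Ier3 were also lower in both pairs. Nr4a1 and Nr4a2 were lower in the replicate 2 pair and level in the replicate 1 pair. Egr2, Egr3 and Nr4a3 were hardly expressed. After filtering at a mean normalized count of at least 10, 8 of the 10 genes were tested with limma on log2(normalized count + 1), with Benjamini-Hochberg adjustment over all 14858 tested genes, and Egr3 and Nr4a3 were not. By this test 1 of the 8, Zfp36, fell with an adjusted p below 0.05 and there were 0 higher calls, where 0.37% of all tested genes were called lower and 0.37% higher. At an unadjusted p under 0.05 the numbers were 4 lower and 0 higher, beside 8.96% and 6.79% of all genes. In 5 of the 8 genes both Bptf-cKO libraries lay below both control libraries, as did 23.8% of all tested genes, and in 0 both lay above, beside 23.2%. The same 5 genes were lower in both replicate pairs, beside 34.4% of all tested genes (34.5% were higher in both). Values over 2-fold lower were seen for 2 of the 8 genes in the replicate 1 pair, Dusp1 and Zfp36, beside 5.29% of all tested genes. In the replicate 2 pair they were seen for 5 of the 8, with Egr1, Nr4a1 and Nr4a2 added, beside 6.93%. On the whole reads recovered from the table, edgeR's quasi-likelihood test called Zfp36 alone among the 8 (0.303% of all genes lower, 0.33% higher) and DESeq2 called Zfp36, Dusp1 and Ier2 (3.37% lower, 2.15% higher). Limma called Egr1, Dusp1 and Zfp36 lower without control replicate 1 (0.276% of all genes lower, 0.512% higher), Dusp1 and Zfp36 without control replicate 2 (0.114% lower, 0.316% higher), and 0 of the 8 without either Bptf-cKO library, fits that called 0 lower and 1 higher among all genes. The median log2 difference of the 8 genes was -0.61, against 0.0010 over all tested genes.

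**Figure D1:**
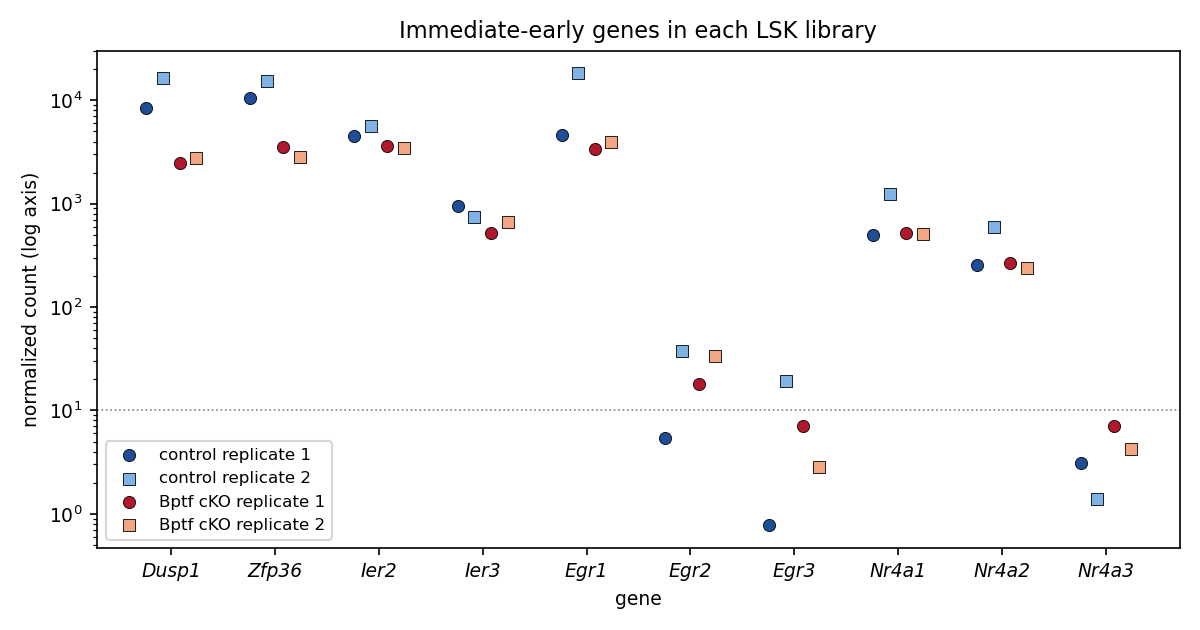
Normalized count (log axis) of each of the 10 genes in the 2 control libraries (blue) and the 2 Bptf-cKO libraries (red), with circles for replicate 1 and squares for replicate 2. The dotted line marks a count of 10, the filter on the mean. The control replicate 2 square is the highest point for Dusp1, Zfp36, Ier2, Egr1, Egr2, Egr3, Nr4a1 and Nr4a2.

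Dusp1 encodes a nuclear phosphatase that inactivates MAP kinases, above all the stress-activated ones. It had normalized counts of 8369.8 and 16528 in the control libraries (replicates 1 and 2) and of 2496 and 2768 in Bptf-cKO libraries 1 and 2. Both control libraries were therefore well above both Bptf-cKO libraries, and the spread lay mainly within the controls. The means were 12449 ± 5768 and 2632 ± 192 (SD, n = 2 libraries each), 4.73-fold lower in Bptf-cKO. On the log2 scale the difference was -2.16 (standard error 0.32, 95% interval -2.96 to -1.36), with a limma adjusted p of 0.0654, just outside the threshold. The replicate 1 pair gave -1.74 and the replicate 2 pair -2.58. The adjusted p was 0.00668 without control replicate 1, 0.0267 without control replicate 2, 0.228 without Bptf-cKO replicate 1 and 0.288 without Bptf-cKO replicate 2, fits in which the lone library is assumed to vary like the others. Over all alternatives it ran from 1.90e-11 to 0.288. Dusp1 lies on chromosome 17, from 26505590 to 26562128 of GRCm38.

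Zfp36, which encodes tristetraprolin, had normalized counts of 10453 and 15449 in the control libraries (replicates 1 and 2) and of 3573 and 2853 in Bptf-cKO libraries 1 and 2. The groups did not overlap, and the lowest control library was 2.93-fold above the highest Bptf-cKO library. The means were 12951 ± 3533 and 3213 ± 509 (SD, n = 2 each), 4.03-fold lower in Bptf-cKO. The log2 difference was -1.99 (standard error 0.22, 95% interval -2.54 to -1.44, limma adjusted p = 0.0368), and the replicate 1 and 2 pairs gave -1.55 and -2.44. The call was lost without Bptf-cKO replicate 1 (adjusted p = 0.125), without Bptf-cKO replicate 2 (0.212) and in limma without the mean-variance trend (0.153). Over all alternatives its adjusted p ran from 8.78e-16 to 0.212. Zfp36 lies on chromosome 7, from 28376784 to 28380253, where an antisense gene, Gm44710, covers 3.60% of its exonic bases. Whether counting used strand is not given in the sources used here.

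Ier2 and Ier3 encode small proteins of early growth-factor and stress responses, the first a nuclear protein and the second one tied to survival and ERK signalling. Ier2 was at 4531 and 5637 in control libraries 1 and 2 and at 3580.4 and 3424 in Bptf-cKO libraries 1 and 2, so that the groups were separate by a small margin. Its log2 difference was -0.53 (standard error 0.13, 95% interval -0.86 to -0.20, limma adjusted p = 0.161), with -0.34 and -0.72 in the replicate 1 and 2 pairs. Ier3 was at 956 and 740.1 in the controls and at 526 and 673 in Bptf-cKO cells. It was the one gene of the 8 whose control replicate 1 was above control replicate 2, and its difference of -0.86 for replicate 1 was larger than that of -0.14 for replicate 2. The log2 difference was -0.50 (standard error 0.19, 95% interval -0.99 to -0.0061, limma adjusted p = 0.312), not beyond the threshold. Ier2 lies at chr8:84661331-84662852 on the minus strand and Ier3 at chr17:35821684-35822923 on the plus strand of GRCm38.

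**Figure D2:**
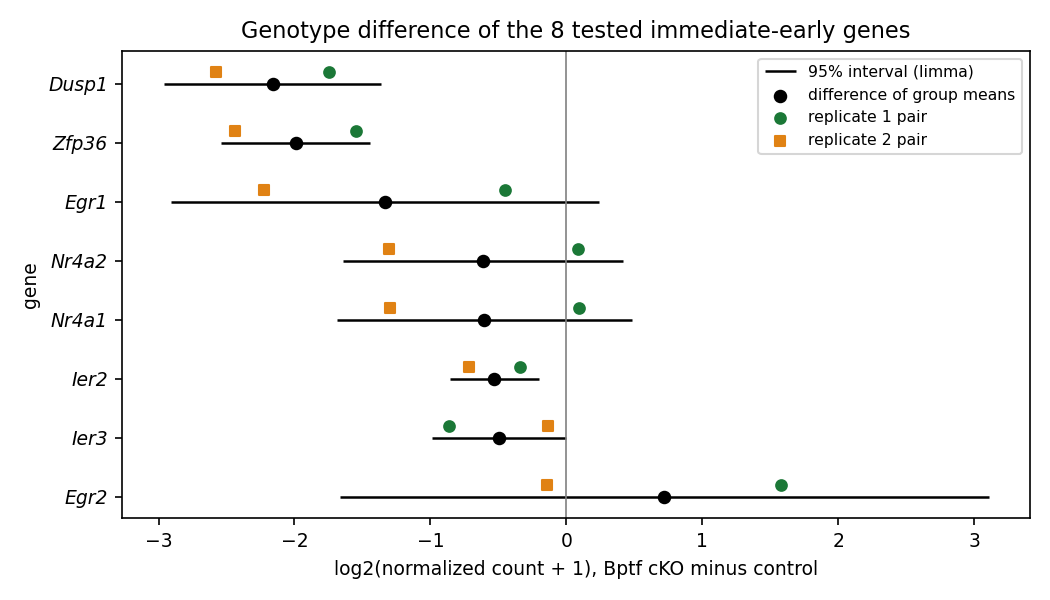
Log2 difference of log2(normalized count + 1), Bptf-cKO minus control, for the 8 tested genes. Black points and lines give the difference of group means with its 95% interval from limma, and coloured points the replicate 1 (circle) and replicate 2 (square) pairs. The intervals of Dusp1, Zfp36, Ier2 and Ier3 lie below 0, that of Ier3 with its upper end at -0.0061, and those of Egr1, Nr4a1, Nr4a2 and Egr2 include 0.

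The EGR proteins are zinc-finger transcription factors that bind GC-rich sites and carry the first wave of signalling into later gene expression. Egr1 was at 4588 and 18261 in control libraries 1 and 2 and at 3357 and 3915 in Bptf-cKO libraries 1 and 2. Control replicate 2 stood far above the other 3 libraries, and control replicate 1 was 1.37-fold above its Bptf-cKO partner. The means of 11425 ± 9669 and 3636 ± 394 (SD, n = 2 each) gave a log2 difference of -1.34 (standard error 0.62, 95% interval -2.91 to 0.24, limma adjusted p = 0.392). Within the pairs it was -0.45 for replicate 1 and -2.22 for replicate 2. Without control replicate 1 the adjusted p was 0.0112 at a log2 difference of -2.33, and without control replicate 2 it was 0.354 at -0.34. Over all alternatives it ran from 0.00774 to 0.831. The size of the Egr1 difference thus rested on 1 control library. This difference between the pairs has 1 library per cell and could not be tested.

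Egr2 (chr10:67535475-67542188) and Egr3 (chr14:70077203-70082614), both on the plus strand of GRCm38, were expressed far below Egr1. Egr2 had normalized counts of 5.43 and 37.4 in the controls and 18.2 and 33.9 in Bptf-cKO cells, from 7, 27, 28 and 24 reads. The 95% exact Poisson intervals of these reads, which cover counting error alone, were 2.81 to 14.4, 17.8 to 39.3, 18.6 to 40.5 and 15.4 to 35.7. Control replicate 1 was the lowest and Bptf-cKO replicate 1 the next lowest, so that the groups overlapped, with a log2 difference of 0.72 (95% interval -1.67 to 3.10, limma adjusted p = 0.785) that turned to -0.57 without control replicate 1. The replicate 1 and 2 pairs gave 1.58 and -0.14. Egr3 had 1 and 14 reads in control libraries 1 and 2 and 11 and 2 reads in Bptf-cKO libraries 1 and 2, with Poisson intervals of 0.0253 to 5.57, 7.65 to 23.5, 5.49 to 19.7 and 0.242 to 7.22. The pairs, at 2.20 and -2.42 on the log2(normalized count + 1) scale, went in opposite directions, and Egr3 was below the filter and was not tested.

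The NR4A proteins are orphan nuclear receptors that act without a known natural ligand and are controlled mainly by how much of them is made. Nr4a1 lies at chr15:101254269-101274795, Nr4a2 at chr2:57106830-57124003 and Nr4a3 at chr4:48045153-48086447 of GRCm38. Nr4a1 was at 493 and 1250.1 in control libraries 1 and 2 and at 524 and 508 in Bptf-cKO libraries 1 and 2. Control replicate 2 was high, and the other 3 libraries lay close together. The log2 difference was -0.60 (standard error 0.43, 95% interval -1.69 to 0.48, limma adjusted p = 0.571), and the replicate 1 pair, at 0.089, stood against -1.30 for the replicate 2 pair. It turned to 0.066 when control replicate 2 was left out. Nr4a2 was also highest in control replicate 2, with the other 3 libraries close together, at 253 and 592 in the controls and 268 and 238 in Bptf-cKO cells. Its log2 difference was -0.61 (standard error 0.41, 95% interval -1.64 to 0.42, limma adjusted p = 0.542), with 0.082 and -1.31 in the pairs and -0.0027 without control replicate 2. Nr4a3 had 4 and 1 reads in the controls and 11 and 3 in Bptf-cKO cells, with both Bptf-cKO libraries above both controls in normalized counts (7.15 and 4.23 against 3.10 and 1.39). The pairs gave log2 differences of 0.99 and 1.13. Nr4a3 was below the filter and was not tested. The Poisson intervals of its reads were 1.09 to 10.2 and 5.49 to 19.7 in the replicate 1 pair. In the replicate 2 pair they were 0.0253 to 5.57 and 0.619 to 8.77. These intervals cover counting error alone, are not scaled for depth and do not decide whether the genotypes differ.

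Levels were also divided by the length of all annotated exons of a gene, pooled over its transcripts. That length was 3470 bases for Zfp36, the whole of its gene, and 3311 for Dusp1 with 6 transcripts. For Ier2 it was 1522 with 1 transcript. The order of the genes therefore depends on which transcripts are annotated. By this measure the mean level over the 4 libraries was highest for Ier2, at 2821 normalized counts per kilobase. Zfp36 and Dusp1 followed at 2329 and 2277, then Egr1 at 1679, Ier3 at 640, Nr4a1 at 198 and Nr4a2 at 83.3. Egr2, Egr3 and Nr4a3 were at 6.98, 1.71 and 0.663. The order at the top differed between libraries. In control replicate 2 Dusp1 led at 4992 per kilobase, above Zfp36, Egr1 and Ier2 at 4452, 4073 and 3703. In both Bptf-cKO libraries Ier2 led at 2352 and 2249.9 per kilobase, with Zfp36 next at 1029.6 in replicate 1 and Egr1 next at 873 in replicate 2. In control replicate 1 Zfp36 and Ier2 were nearly level, at 3012 and 2977.

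The 2 control libraries differed from each other more than the 2 Bptf-cKO libraries did for most of these genes. Of the 8 tested genes 7 were higher in control replicate 2 than in control replicate 1, and 4 of them, Egr1, Egr2, Nr4a1 and Nr4a2, by more than 2-fold, against 3.61% of all tested genes. Between Bptf-cKO replicates 2 and 1 0 of the 8 were over 2-fold higher in replicate 2, against 3.57% of all tested genes. The median difference between replicates 2 and 1 was 1.10 on the log2 scale in controls and 0.051 in Bptf-cKO cells, beside 0.0025 and -0.0045 over all tested genes. Over all tested genes the central 95% of the control difference ran from -1.56 to 1.17. The pattern was not limited to the 8 genes. Of 46 other tested immediate-early genes, described below, 15 were over 2-fold higher in control replicate 2 than in control replicate 1. In Bptf-cKO cells 2 of the 46 were over 2-fold higher in replicate 2. Their median differences between replicates 2 and 1 were 0.42 in controls and 0.023 in Bptf-cKO cells.

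Heat-shock genes, which cell isolation is also known to induce, were mostly higher in replicate 2 of both genotypes. Their median difference between replicates 2 and 1 was 0.60 on the log2 scale in controls and 0.25 in Bptf-cKO cells. Hspa1a, an inducible HSP70 gene, was at 17.1 and 269 in control libraries 1 and 2 and at 1.30 and 185 in Bptf-cKO libraries 1 and 2. Hspa1b was at 57.4, 599, 22.1 and 457 in the same order, and Hspb1 at 2.33, 16.6, 0.650 and 22.6. These 3 genes were the only ones on the list over 2-fold higher in replicate 2, in controls and in Bptf-cKO cells alike. Hspb1 rested on at most 16 reads per library. Hsph1, Dnajb1 and Dnajb4 were higher in replicate 2 by 0.83, 0.58 and 0.56 in controls and by 0.29, 0.19 and 0.15 in Bptf-cKO cells. Egr1, Nr4a1 and Nr4a2 were high in control replicate 2 and not in Bptf-cKO replicate 2. Of the 14 heat-shock genes on the list, 14 were higher in control replicate 2 than in control replicate 1 and 13 were higher in Bptf-cKO replicate 2 than in replicate 1. By limma 0 of the 14 fell and 0 rose between genotypes, beside 0.37% and 0.37% of all tested genes. At an unadjusted p under 0.05 the numbers were 1 lower and 0 higher, beside 8.96% and 6.79%. The 14 heat-shock genes had a median log2 difference of -0.075. The largest differences were -1.76 for Hspa1a, -0.89 for the co-chaperone gene Dnajb4 and -0.86 for Hspa1b. Dnajb1, Hspb1 and Hsph1 followed at -0.47, -0.30 and 0.24. The part of the heat-shock genes in the values of Egr1, Nr4a1 and Nr4a2 was not tested. Within the replicate 1 pair Dusp1 was 3.35-fold and Zfp36 2.93-fold lower in Bptf-cKO cells, log2 differences of -1.74 and -1.55. Those of Hspa1a and Hspa1b were -2.97 and -1.34. They rested on few reads, 22 in control and 2 in Bptf-cKO for Hspa1a, and 74 and 34 for Hspa1b.

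**Figure D3:**
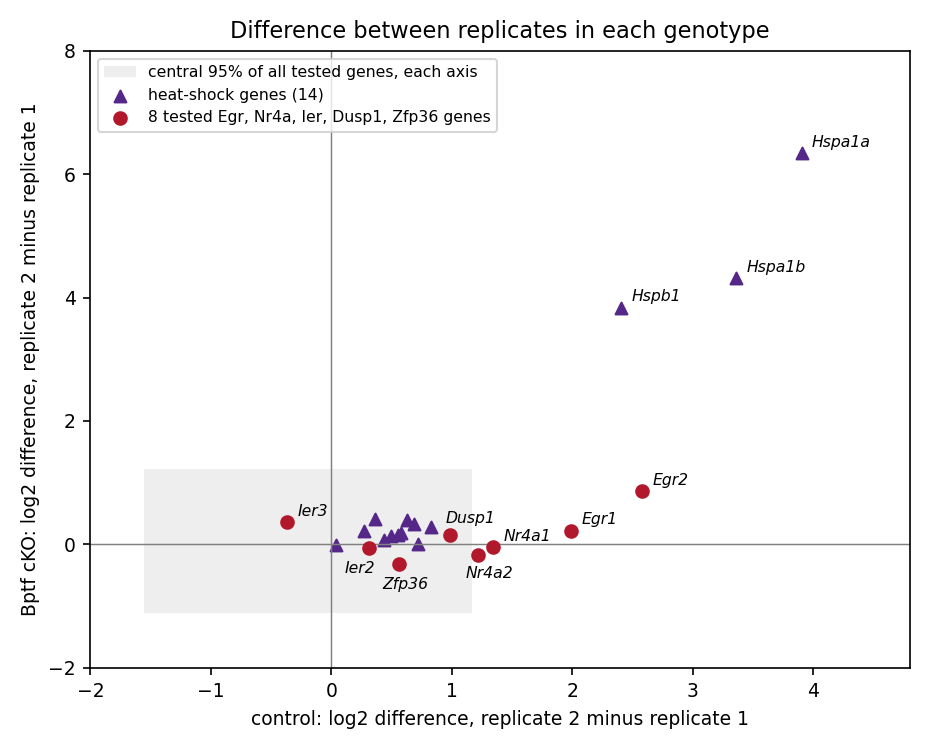
Log2 difference between replicate 2 and replicate 1 in control cells (horizontal axis) and in Bptf-cKO cells (vertical axis) for the 8 tested genes (red circles) and 14 heat-shock genes (purple triangles). The grey box spans the central 95% of all tested genes on each axis. Egr1 at 1.99 and Nr4a1 at 1.34 are raised in controls alone. Hspa1a and Hspa1b are raised on both axes, while Hsph1 (unlabelled) is at 0.83 in controls and 0.29 in Bptf-cKO cells.

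The granulocyte, monocyte, B-cell, and stromal and endothelial marker sums were highest in control replicate 1 and lowest in control replicate 2. The order of Dusp1, Zfp36 and Egr1 was the opposite within the controls. The sums of LSK, erythroid and megakaryocyte markers, like Dusp1 and Zfp36, were below both controls in each Bptf-cKO library. The part of these markers in the results was not tested. In RNA from sorted populations, fewer cells that express a gene and less of its RNA per cell cannot be told apart.

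Other immediate-early and fast-response genes were lower in Bptf-cKO LSK cells more often than higher. The list was chosen with earlier results of these data known, and the paper reports lower Fos and Jun in Bptf-cKO LSK cells. Its counts are therefore a description and not independent support. It held 50 such genes, of which 46 were tested. By limma 1 of them, Rgs2, fell and 0 rose, beside 0.37% and 0.37% of all tested genes. At an unadjusted p under 0.05 the numbers were 20 lower and 2 higher, beside 8.96% and 6.79%. Both Bptf-cKO libraries were below both controls for 24 genes and above them for 7, where 23.8% and 23.2% of all tested genes were. The median log2 difference was -0.54, and the medians within the replicate 1 and 2 pairs were -0.16 and -0.72. Rgs2, which encodes a brake on G-protein signalling, was at 3513 and 3487 in the controls and 1703 and 1458 in Bptf-cKO cells, a log2 difference of -1.15 (standard error 0.11, limma adjusted p = 0.0297) that was nearly equal in the pairs, at -1.04 and -1.26. The Krüppel-like factor gene Klf2 had the largest difference on the list, -3.21 (limma adjusted p = 0.181), with -1.90 and -4.53 in the pairs, and its control replicates 1 and 2 were at 1477 and 9669.8. Klf4 had -2.47 and the small GTPase gene Rhob -1.97, with adjusted p values of 0.230 and 0.0941. The AP1 genes Fosb, Fos and Jun, at -2.95, -2.51 and -2.03, likewise had larger differences in the replicate 2 pair. Without control replicate 1 the number of lower calls on this list was 7, without control replicate 2 it was 3, and it was 0 without either Bptf-cKO library.

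**Figure D4:**
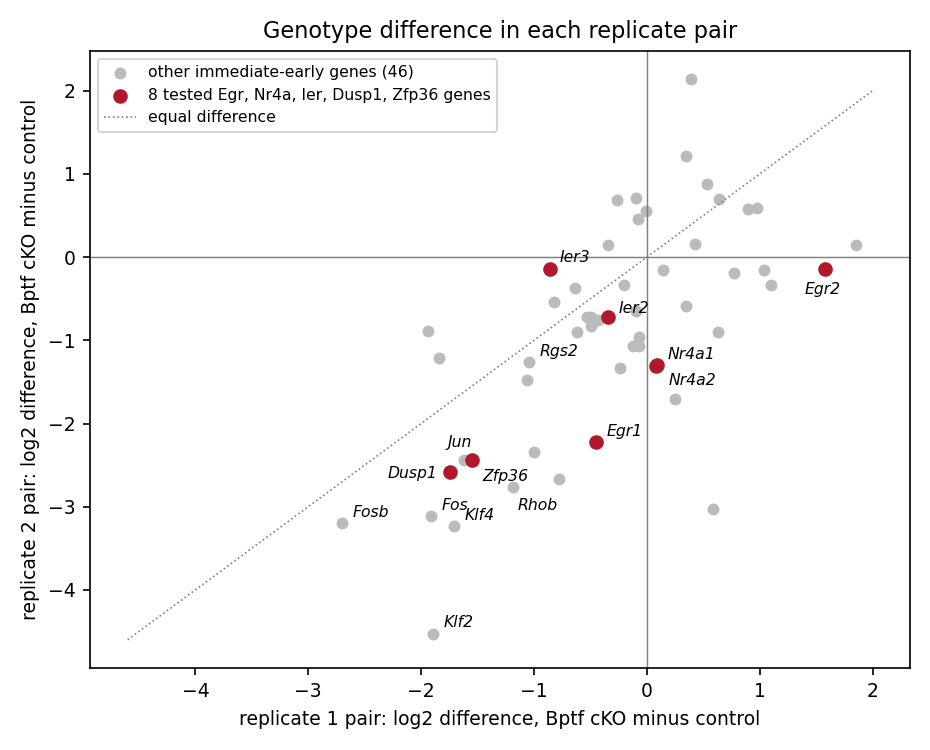
Log2 difference of log2(normalized count + 1), Bptf-cKO minus control, in the replicate 1 pair (horizontal axis) and the replicate 2 pair (vertical axis), for the 8 tested genes (red) and 46 other immediate-early genes (grey). On the dotted line both pairs differ equally. Dusp1 and Zfp36 lie with Fos and Jun, low in both pairs, and Nr4a1 and Nr4a2 are near 0 on the horizontal axis and at about -1.30 on the vertical one.

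Relatives and partners of these genes did not follow a common direction. Of 12 tested relatives 0 fell and 0 rose by limma, beside 0.37% and 0.37% of all tested genes. At an unadjusted p under 0.05 the numbers were 2 lower and 1 higher, beside 8.96% and 6.79%. Nab2, which encodes a corepressor of EGR proteins, was at 426 and 534 in the controls and 757 and 906 in Bptf-cKO cells, a log2 difference of 0.80 (95% interval 0.35 to 1.24, limma adjusted p = 0.132). Dusp5 and Dusp6, phosphatases of ERK, had log2 differences of -1.13 and -0.43 (adjusted p = 0.168 and 0.388), and Dusp4 had 1.34 (0.433). Ier5 and Ier5l had -0.45 and -1.67 (0.392 and 0.305), the second from at most 41.1 normalized counts.

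The factors and kinases upstream of immediate-early promoters differed little between the genotypes. All 27 genes on this list were tested. It holds SRF and its partners, CREB and its coactivators, and the ERK, JNK and p38 kinases. By limma 0 fell and 0 rose, beside 0.37% and 0.37% of all tested genes. At an unadjusted p under 0.05 the numbers were 1 lower and 1 higher, beside 8.96% and 6.79%. The log2 differences of the 27 genes ran from -0.40 to 0.27 with a median of 0.022. The largest were those of the MADS-box factor gene Mef2c, at -0.40 (95% interval -0.64 to -0.17, limma adjusted p = 0.144), of Rps6ka5, at -0.28, of the ERK kinase gene Map2k2, at 0.27, and of the SRF coactivator gene Mkl1, at -0.27. Rps6ka4 and Map2k1 followed at 0.21 and 0.20. These are RNA levels, and the activity of the kinases was not measured.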

How the data were processed

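RNA was measured in 2 control and 2 Bptf-cKO LSK libraries, grouped by their sample titles. The submitters' processing notes name HISAT2, featureCounts, DESeq2 and the build GRCm38/mm10, and the annotation is not given in the sources used here. The deposited signal is the normalized count per library, a gene count that the authors divided by a size factor. Columns with the authors' own log2 fold change, score and p-value were deposited beside it and were not used, nor was their mean.

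Each value was a whole multiple (within 0.01) of the value of 1 read, giving whole reads for 100% of the values. With edgeR's quasi-likelihood test on these reads 45 genes were lower and 49 higher. The main test (limma 3.58.1, R 4.3.3) fitted a mean-variance trend to log2(normalized count + 1), with genotype as the factor, over genes with a mean of at least 10, two-sided at an adjusted p under 0.05. The pseudocount understates changes of low genes. Alternatives used edgeR 4.0.16, DESeq2 1.42.0, other pseudocounts, filters and scalings, the replicate number as a block, and each library left out. The fits were tested on simulated counts with a fixed dispersion and no replicate differences shared between genotypes. Those settings are simpler than these data, so the simulation does not cover the replicate differences seen here. An exact permutation test of 2 against 2 libraries cannot give a p under 0.333. P-values measure the spread between pooled libraries.

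Gene lists and the 10 genes were chosen with earlier results of these data known. Named were the 10 genes, Bptf, any gene called (except 1 marker that is not reported here) and, of each list, the 6 with the largest differences, and the 8 genes nearest to the mean profile. Positions and exon lengths are from GENCODE vM21 on GRCm38.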

Additional observations from a re-analysis of the deposited data

How the results depend on the processing

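Leaving out 1 library moved the number of genes called between 0 and 41 lower and between 1 and 76 higher over all genes, between 0 and 3 lower among the 10 genes and between 0 and 7 lower among the other immediate-early genes. The log2 differences then ran from -2.33 to -0.34 for Egr1, -0.57 to 2.01 for Egr2, -1.27 to 0.066 for Nr4a1, -1.22 to -0.0027 for Nr4a2, -0.69 to -0.37 for Ier2, -0.68 to -0.31 for Ier3, -2.65 to -1.67 for Dusp1 and -2.27 to -1.71 for Zfp36. Limma without the trend called 0 lower and 2 higher over all genes, 0 of the 10 genes and 0 other immediate-early genes, with Zfp36 at -1.99 (adjusted p = 0.153). DESeq2 on whole reads called 500 lower and 319 higher, 3 of the 10 genes lower (Zfp36, Dusp1 at -2.24 and Ier2 at -0.53, adjusted p 8.78e-16, 1.90e-11 and 0.0248), 15 other immediate-early genes lower and 1 higher, and 1 heat-shock gene lower. The cause of these changes was not tested.

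The replicate numbers are shared by the labels of both genotypes, with no statement of what they mark. The deviations of same-numbered libraries correlated at 0.452 across 14858 genes and 0.638 across the 10815 with a mean of at least 100. With the replicate block, limma called 1242 lower and 896 higher over all genes and 4 of the 10 genes lower, namely Egr1 at -1.34 (adjusted p = 0.00774), Ier2 at -0.53 (0.00485), Dusp1 at -2.16 (4.24e-06) and Zfp36. It called 21 other immediate-early genes lower and 4 higher, and 4 heat-shock genes lower. With the replicate block edgeR called 1229 lower and 891 higher over all genes, 4 of the 10 genes lower (Egr1 at -1.33, Ier2 at -0.53, Dusp1 at -2.16 and Zfp36), 20 other immediate-early genes lower and 4 higher, and 2 heat-shock genes lower. In the tried pseudocounts, filters and scalings, Zfp36 stayed called and each of the 8 genes kept its direction, except that a mean of at least 50 left Egr2 untested. The block's shares of all genes were 8.36% lower and 6.03% higher in limma. Alternatives for the heat-shock list and for likeness were added after the data had been seen. Of the 8 genes nearest to the mean profile, 3 were among the nearest with a pseudocount of 10 and 2 with a mean of at least 50. Low read numbers limit Egr2, Egr3 and Nr4a3, and 2 libraries per genotype limit the rest.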

Other observations

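Among tested genes outside the 10, those whose 4 mean-centred log2 values lay nearest to the mean profile of the 8 tested genes were Gm43820, Slc6a17, Mlf1, Dcbld1, Cyp7b1, Ctnnal1, Tmem88 and Rassf6, at Euclidean distances of 0.130 to 0.191 on the log2 scale over 4 libraries. Most were low in expression, and Ctnnal1, a catenin-like gene, was the highest of them, with 476 and 841 normalized counts in control libraries 1 and 2 and 321 and 365 in Bptf-cKO libraries 1 and 2. The 8 genes themselves lay at distances of 0.350 for Nr4a2 to 1.99 for Egr2, so that their mean profile describes none of them closely. With 4 libraries such likeness is a description and carries no test.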
